A study of Sus scrofa with 4 samples.

Results

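The semaphorins, plexins, neuropilins, ephrins, Eph receptors, Slits, Robo receptors, netrins and UNC5 receptors were followed in fibroblasts cultured from the skin of fetal pigs, cells used as nuclear donors in cloning. Members were chosen by name: 70 of the 35670 genes listed carry a symbol of these families, and 17508 genes carry any symbol. The name pattern also takes in UNC50, which is no UNC5 receptor, and UNC5CL, which is only named for its likeness to UNC5C. RNA was sequenced from 4 libraries of cells starved of serum, 2 of wild-type genotype (controls) and 2 whose label states overexpression of BRG1. SMARCA4 encodes BRG1, a motor subunit of BAF, a complex that remodels chromatin. All 4 titles contain pTK-642, a name left unexplained in the sources used here, which also do not give the vector, the species of the introduced sequence or whether a library is 1 clone or 1 culture. With separate cultures not stated, p-values reflect the spread among these samples alone, which may be technical. SMARCA4 stood at 154 and 179 CPM in the controls and at 159 and 163 CPM in the libraries labelled BRG1 (log2 fold change -0.04 ± 0.11, SE, adjusted p = 0.764). Without control 1 it passed as lower (-0.15, adjusted p = 0.0285), and with scaling by library size alone it was at 0.18, so the label is quoted as given throughout. Fibroblast markers fixed as a check of cell type, among them COL1A1, COL1A2, COL3A1, DCN, LUM and VIM, were above 1 CPM in each library. Of these 11 markers 6 rose (COL1A1, COL1A2, DCN, LUM, PDGFRA and FAP), against 20.8% of all genes. COL3A1 (-0.21) and VIM (-0.27) did not pass, nor did PDGFRB, S100A4 and PRRX1. Reads summed over genes came to between 34486400 and 38126860 a library, of which the 70 members took 0.411% and 0.512% in controls 1 and 2 and 0.500% in each library labelled BRG1.

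Guidance proteins steer growing axons, and connective tissue cells use the same proteins in adhesion, migration, vessel patterning and the sorting of cells at boundaries. Semaphorins bind plexins, whose inner part acts on small GTPases, and the secreted class 3 members mostly need a neuropilin beside the plexin. Ephrins stay on the membrane and signal with Eph receptor kinases into both cells that touch. Secreted Slits bind Robo receptors, and netrins bind UNC5 receptors, DCC and neogenin.

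Of the 70 members, 58 had 10 or more reads in at least 2 libraries and were tested. The 12 not tested were SEMA3E, SEMA4A, EPHA5, EPHA6, EPHA8, EPHB6, SLIT1, ROBO3, ROBO4, NTN5, UNC5CL and UNC5D. None of these had more than 12 reads in a library, and EPHA6, EPHA8, ROBO4, UNC5CL and UNC5D had 0 reads in all 4. Levels are given as CPM, counts per unit of library size scaled by TMM factors, and a change is a log2 fold change of the libraries labelled BRG1 over the controls with its standard error (SE). Transcript lengths were not used, so levels of different genes are not compared.

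At an adjusted p of 0.05, 20 members rose and 12 fell, or 34.5% and 20.7% of those tested. Among all 14711 genes tested, 20.8% rose and 23.4% fell, 44.2% in all. The largest rises were those of ROBO2, EPHA7, NTN3, PLXNA4, SLIT3 and PLXNB3, and the largest falls those of EPHA1, SEMA6A, EPHA10 and EPHA4. At least 2-fold rises were found for 9 members (15.5%, against 8.57% of all genes), and 2-fold falls for 4 members (6.90%, against 6.24%). Libraries of the groups did not overlap in 40 members, 26 higher and 14 lower, or 69.0%, against 73.1% of all genes. EPHB2, EPHA7, EFNA3, NTN3 and ROBO2 were tested only because of reads in the libraries labelled BRG1, which favours a rise among them. Among the 52 members with 10 or more reads in all 4 libraries 17 rose and 12 fell, or 32.7% and 23.1%, against 21.0% and 25.3% of the 13188 genes with such reads. Rises of at least 2-fold numbered 6 of these 52 (11.5%, against 7.38%); ROBO2, NTN3 and EPHA7 are not among them. The median over the 58 was 0.17, against 0.02 for all genes. In bulk RNA a smaller share of cells making a transcript and less of it per cell cannot be told apart. Scaling by library size alone moved the median of all genes by 0.23 and that of the members by 0.22. With it 26 members rose and 8 fell, against 4818 and 2136 of all 14711 genes. Leaving out either library labelled BRG1 gave fewer rises and fewer falls, among members and among all genes. Among members the balance moved with the control: falls were nearly as many as rises without control 1 and far fewer without control 2. Among all genes falls outnumbered rises without either control.

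**Figure D1:**
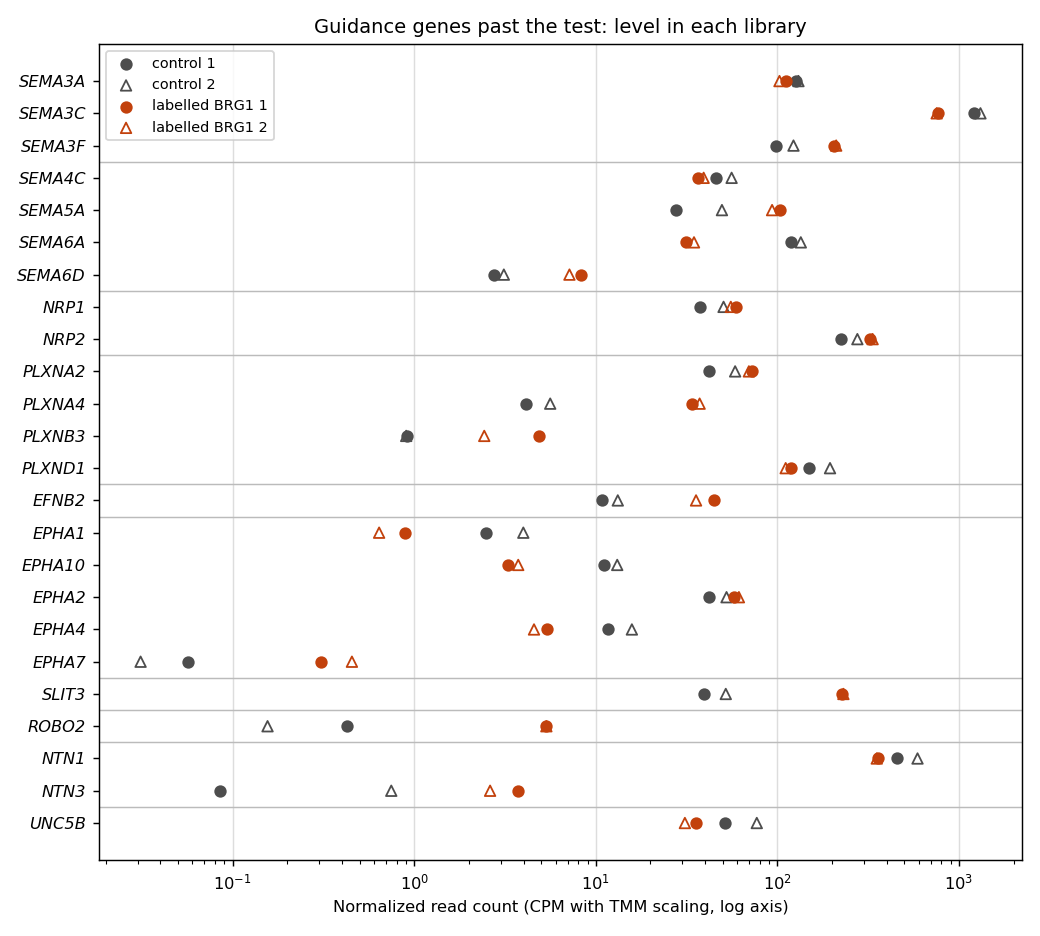
Normalized read count (CPM, log axis) in each of the 4 libraries for the 24 guidance genes past the test that changed at least 2-fold or have a mean log2 CPM of at least 5. Grey lines divide the families. Controls are grey and libraries labelled BRG1 orange, with replicate 1 filled and replicate 2 open; SLIT3, PLXNA4, EFNB2 and ROBO2 lie far to the right in both orange libraries and SEMA6A, EPHA10 and EPHA4 to the left.

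Semaphorins, the largest set of ligands, split evenly: of 18 tested, 5 rose and 5 fell, with a median of 0.01. That was 27.8% in each direction, against 20.8% of all genes higher and 23.4% lower. SEMA6A (ENSSSCG00000014224), a membrane-bound semaphorin that binds PLXNA2 and PLXNA4, fell the most. It stood at 119 and 134 CPM in the controls and at 31.5 and 34.7 CPM in the libraries labelled BRG1. Both controls lay above both other libraries, and the log2 fold change was -1.93 ± 0.11 (adjusted p = 5.39e-09; here and later by the quasi-likelihood test of edgeR, adjusted by Benjamini-Hochberg over all genes). SEMA6D, of the same class, went the other way. Its values were 2.74 and 3.12 CPM in the controls and 8.34 and 7.16 CPM in the libraries labelled BRG1, a rise of 1.40 ± 0.23 (adjusted p = 0.00016). SEMA5A, a membrane semaphorin with thrombospondin repeats, rose by 1.36 ± 0.19 (adjusted p = 3.49e-05), from 27.5 and 49.5 CPM to 104 and 93.4 CPM. Its controls differed 1.80-fold from each other, and the change was 1.84 without control 2 and 0.99 without control 1.

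SEMA3C (ENSSSCG00000023784), a secreted semaphorin known for its part in the outflow tract of the heart, had 42295 and 42093 reads in the controls and 30172 and 28186 in the libraries labelled BRG1. In CPM these were 1208 and 1312 against 769 and 753, a fall of 0.73 ± 0.11 on the log2 scale (adjusted p = 7.68e-05) with no overlap. SEMA3F, which acts mainly through NRP2, rose from 97.9 and 123 CPM to 204 and 211 CPM (0.91 ± 0.12, adjusted p = 1.58e-05). SEMA3A, the ligand of NRP1 that collapses growth cones, fell only slightly, from 127 and 131 CPM to 111 and 103 CPM (-0.27 ± 0.10, adjusted p = 0.0401). That call was lost without library 1 labelled BRG1 (adjusted p = 0.219), without library 2 (adjusted p = 0.444) and with scaling by library size alone, where the value was -0.04. Upper quartile scaling (-0.16) and testing only genes with 10 reads in all libraries (adjusted p = 0.0558) also ended it, and removing the trend with gene length in the genome, its span, gave -0.59. SEMA3D stood at 88.7, 97.6, 83.3 and 81.6 CPM in controls 1 and 2 and libraries 1 and 2 labelled BRG1. It did not pass (-0.17, 95% interval -0.39 to 0.04), though it did without control 1 (-0.24) and once the span trend was removed (-0.44).

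Smaller changes were found in SEMA4C, which binds PLXNB2, and in SEMA3B, SEMA4F and SEMA7A. SEMA4C fell from 46.2 and 55.9 CPM to 36.3 and 39.2 CPM (-0.43 ± 0.12, adjusted p = 0.00906). SEMA3B rose from 19.2 and 24.6 CPM to 29.3 and 29.8 CPM (0.43 ± 0.14, adjusted p = 0.0224), and SEMA4F from 14.9 and 17.2 CPM to 22.4 and 22.2 CPM (0.47 ± 0.14, adjusted p = 0.0131). SEMA7A, anchored to the membrane by a lipid, fell from 2.74 and 2.80 CPM to 1.40 and 1.52 CPM (-0.92 ± 0.36, adjusted p = 0.0473), at 55 to 96 reads a library. None of these 4 calls held throughout. Without library 1 labelled BRG1 the adjusted p was 0.144 for SEMA4C, 0.111 for SEMA3B, 0.1 for SEMA4F and 0.186 for SEMA7A. Without library 2 the last 3 had 0.142, 0.0945 and 0.13, while without control 1 SEMA3B had 0.0683 and SEMA7A 0.074, and without control 2 SEMA7A had 0.0762. The value of SEMA3B was 0.26 without control 1 and 0.66 when scaled by library size alone, and that of SEMA4C -0.29 without control 2. SEMA4C also did not pass with library size alone or with the span trend removed (-0.21 in both), nor did SEMA7A (-0.70 and -0.88), which DESeq2 gave an adjusted p of 0.0605. SEMA3G, SEMA4B, SEMA4D, SEMA4G, SEMA5B, SEMA6B and SEMA6C did not pass, with values from -0.21 (SEMA5B) to 0.40 (SEMA6B). Of these 7, SEMA4G, at 0.36, passed as higher with library size alone (0.58), with upper quartile scaling (0.46) and with the span trend removed (0.48). Its value was 0.55 without control 2 and 0.19 without control 1.

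Neuropilins and plexins are the receptors of these ligands. Both neuropilins were higher in both libraries labelled BRG1, by about 1.3-fold. NRP2 stood at 223 and 275 CPM in the controls and 322 and 334 CPM in the others (0.40 ± 0.11, adjusted p = 0.011), and NRP1 at 37.5 and 50.5 CPM against 58.8 and 55.4 CPM (0.38 ± 0.13, adjusted p = 0.0304). Without library 1 labelled BRG1 the adjusted p was 0.133 for NRP2 and 0.216 for NRP1, and without library 2 it was 0.198 and 0.0879. NRP1 was also lost without control 1 (0.18, adjusted p = 0.0992), where NRP2 was at 0.25. Without control 2 NRP1 was at 0.61, and with library size alone it was at 0.60 and NRP2 at 0.62. After removal of the span trend NRP2 was at 0.19 and NRP1 at 0.14, and neither passed.

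Of 9 plexins 3 rose and 1 fell. PLXNA4 (ENSSSCG00000021562), a receptor of SEMA6A and, with a neuropilin, of SEMA3A, rose the most and to the same degree in both libraries. It had 145 and 180 reads in the controls and 1325 and 1396 in the libraries labelled BRG1. In CPM it went from 4.14 and 5.61 to 33.8 and 37.3, a 7.30-fold rise (2.87 ± 0.17, adjusted p = 6.49e-09). PLXNA2, the other SEMA6A receptor, rose less, from 41.7 and 58.5 CPM to 72.9 and 69.6 CPM (0.51 ± 0.14, adjusted p = 0.0068). Its adjusted p was 0.0523 without library 1 labelled BRG1, its value 0.28 without control 1 and 0.77 without control 2, and with the span trend removed it did not pass (0.24). PLXNB3, a receptor of SEMA5A, rose from 0.914 and 0.904 CPM to 4.87 and 2.43 CPM (2.00 ± 0.41, adjusted p = 0.001). The 2 libraries labelled BRG1 differed 2-fold in PLXNB3, with 191 and 91 reads, and without library 1 the value was 1.41 (adjusted p = 0.0654).

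PLXND1, a receptor of SEMA3C and SEMA3E in vessels, was the plexin that fell, from 149 and 195 CPM to 118 and 111 CPM (-0.58 ± 0.12, adjusted p = 0.00126). It passed without each library, at -0.76 without control 1 and -0.38 without control 2, and at -0.36 with library size alone. The other 5 plexins did not pass. PLXNB2, a receptor of class 4 semaphorins, stood at 718 and 961 CPM in the controls and at 785 and 804 CPM in the libraries labelled BRG1, which lay between them (-0.08, 95% interval -0.36 to 0.20). PLXNA1 showed the same order, with 247 and 345 CPM in the controls and 280 and 288 CPM in the others (-0.06, interval -0.34 to 0.23). For both, the direction rested on the control used. Without control 1 PLXNB2 fell by 0.27 on the log2 scale and PLXNA1 by 0.28, and without control 2 they rose by 0.15 and 0.20, all past the test. PLXNA3 (0.26), PLXNB1 (0.11) and PLXNC1 (-0.32) also missed the threshold. Without control 2 PLXNA3 was at 0.53 and PLXNB1 at 0.33, and without control 1 they were at 0.04 and -0.08. With library size alone both passed as higher (0.49 and 0.34). PLXNA3 also passed with upper quartile scaling (0.37), with the replicate number as a block (0.28) and with the span trend removed (0.41).

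**Figure D2:**
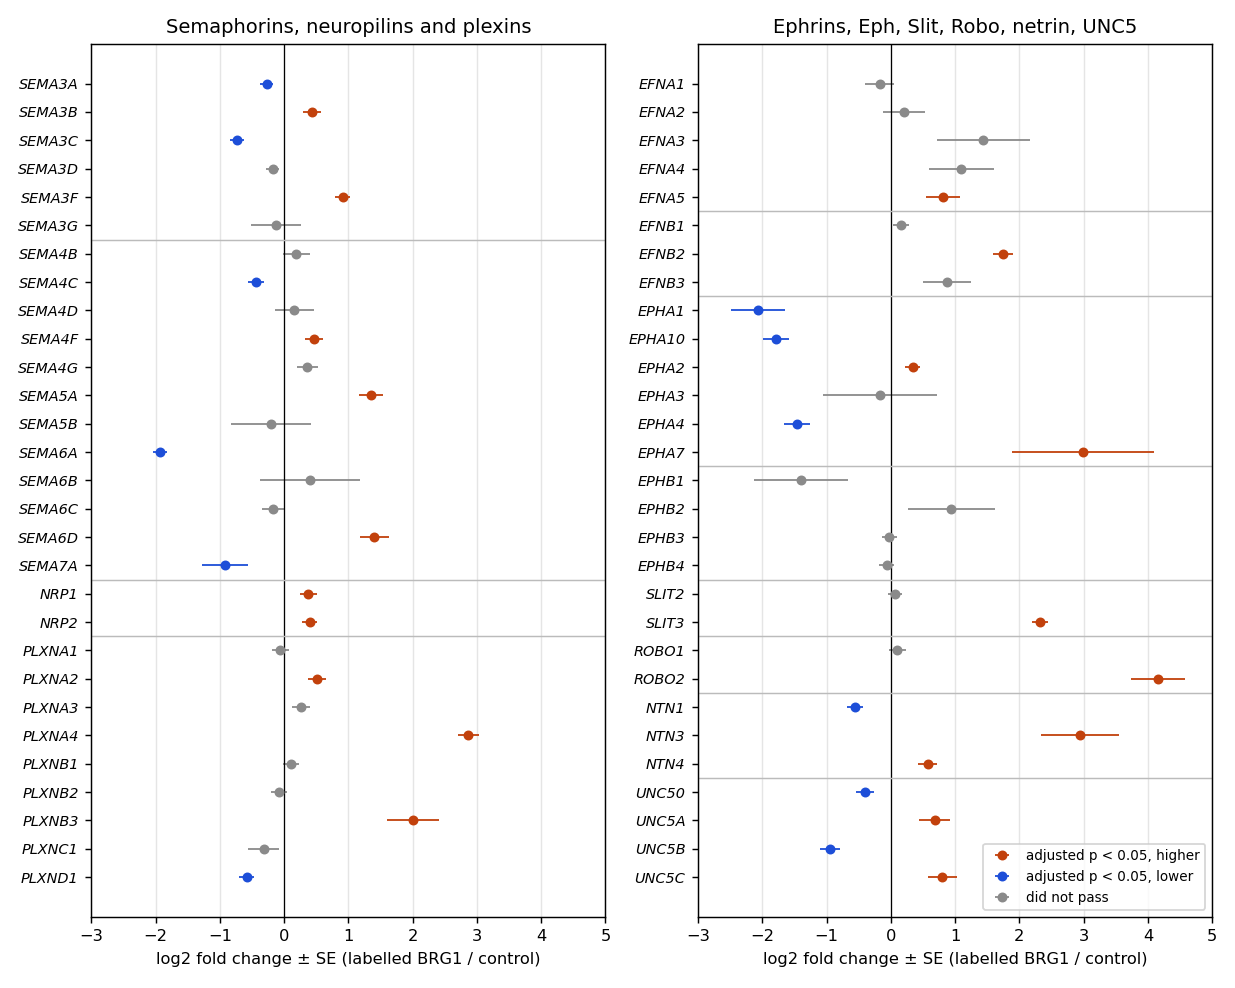
Log2 fold change (libraries labelled BRG1 over controls) with its standard error for the 58 guidance genes tested, semaphorins, neuropilins and plexins on the left and the other families on the right. Orange points rose, blue points fell and grey points did not pass an adjusted p of 0.05; families with both orange and blue points include the semaphorins, plexins, EphA receptors, netrins and UNC5 receptors.

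Among ephrins, the ligands of Eph receptors, 2 of 8 rose (25%, against 20.8% of all genes) and 0 fell. The unadjusted p was under 0.05 for 4 of the 8, against 51.1% of all genes. DESeq2 called none of the 8 lower either. EFNB2 (ENSSSCG00000009535), a membrane-spanning ephrin that marks arteries and binds EPHB4, had 378 and 424 reads in the controls and 1752 and 1334 in the libraries labelled BRG1. Its level went from 10.8 and 13.2 CPM to 44.7 and 35.6 CPM, a 3.35-fold rise (1.74 ± 0.15, adjusted p = 4.2e-07). EFNA5, which is anchored by a lipid, rose from 2.60 and 2.55 CPM to 4.77 and 4.27 CPM (0.81 ± 0.27, adjusted p = 0.0234). That call was lost without library 1 labelled BRG1 (adjusted p = 0.168), without library 2 (adjusted p = 0.0687) and with the span trend removed (0.52). EFNB1 and EFNB3 were higher in both libraries labelled BRG1 but did not pass. EFNB1 stood at 35.3 and 31.7 CPM against 38.4 and 36.3 CPM (0.16, 95% interval -0.10 to 0.41), and EFNB3 at 1.49 and 1.50 CPM against 3.34 and 2.11 CPM (0.87, interval 0.07 to 1.67, adjusted p = 0.073). Both passed as higher with scaling by library size alone (0.38 and 1.10) and with the span trend removed (0.32 and 1.16). EFNB3 also passed with upper quartile scaling (0.98). EFNA1 (-0.18), EFNA2 (0.20), EFNA3 (1.44) and EFNA4 (1.09) did not pass. EFNA3 and EFNA4 rest on 6 to 102 reads a library. Their values were 2.15 and 2.13 without control 1, and 0.97 and 0.51 without control 2. EFNA4 passed as higher with library size alone (1.32), with any gene with a read tested (1.07), with the replicate number as a block (1.23) and with the span trend removed (1.42).

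Eph receptors of the A class changed in both directions, while no B class receptor passed. Of 6 EphA receptors 3 fell (50%, against 23.4% of all genes) and 2 rose (33.3%, against 20.8%). EPHA4 (ENSSSCG00000016230), which binds ephrins of both classes, fell from 11.6 and 15.8 CPM to 5.38 and 4.57 CPM (-1.46 ± 0.20, adjusted p = 2.84e-05). EPHA10, a receptor without kinase activity, fell from 11.0 and 13.1 CPM to 3.26 and 3.74 CPM (-1.78 ± 0.20, adjusted p = 4.54e-06). EPHA1 fell from 2.48 and 3.99 CPM to 0.892 and 0.641 CPM (-2.07 ± 0.42, adjusted p = 0.000968), from 87 and 128 reads to 35 and 24. All 3 fell 2.75-fold to 4.19-fold, and each passed in every alternative run. EPHA2, a receptor found in many epithelia, rose from 41.8 and 52.4 CPM to 57.6 and 61.3 CPM (0.34 ± 0.12, adjusted p = 0.0336). It did not pass in DESeq2 (adjusted p = 0.0551), without control 1 (0.18, adjusted p = 0.0815), without library 1 labelled BRG1 (adjusted p = 0.14) or without library 2 (adjusted p = 0.272), and its value was 0.51 without control 2 and 0.56 when scaled by library size alone. EPHA7 rose from 2 and 1 reads to 12 and 17 reads, or from 0.0571 and 0.0312 CPM to 0.306 and 0.454 CPM (2.99 ± 1.10, adjusted p = 0.0337). With so few reads the interval ran from 0.73 to 5.45, and EPHA7 did not pass in DESeq2 (adjusted p = 0.0784), without control 2 (adjusted p = 0.079), without library 1 labelled BRG1 (adjusted p = 0.103) or without library 2 (adjusted p = 0.231). Nor did it pass in limma-voom, with the replicate block, with any gene with a read tested or with the span trend removed, where the adjusted p lay between 0.0502 and 0.142. EPHA3, at 6 to 12 reads a library, did not pass.

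EPHB4, the receptor of EFNB2 in veins, stood at 44.6 and 49.8 CPM in the controls and 44.4 and 45.6 CPM in the libraries labelled BRG1. The difference of -0.07 had a 95% interval from -0.30 to 0.17. EPHB3 stood at 34.1, 35.3, 34.9 and 33.5 CPM (-0.02, interval -0.27 to 0.23), so that a change as large as that of EFNB2 (1.74) lay outside both intervals. EPHB1 and EPHB2 rest on 7 to 51 reads a library and had values of -1.40 and 0.94. EPHB1 passed as lower without control 1 (-1.87), and EPHB2 as higher without control 2 (2.53); control 2 held 33 of its reads and control 1 held 7. Of the 4 EphB receptors tested 0 had an unadjusted p under 0.05, against 51.1% of all genes, and DESeq2 called 0.

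SLIT3 and ROBO2 rose, while SLIT2 and ROBO1, their close relatives, did not pass. SLIT3 (ENSSSCG00000017012), a large secreted glycoprotein, had 1381 and 1667 reads in the controls and 8896 and 8640 in the libraries labelled BRG1. Its level went from 39.4 and 51.9 CPM to 227 and 231 CPM, a 5.01-fold rise (2.32 ± 0.13, adjusted p = 3.28e-09). ROBO2 (ENSSSCG00000012002), a Slit receptor, went from 15 and 5 reads to 208 and 200 reads. In CPM these were 0.428 and 0.156 against 5.30 and 5.34, a change of 4.15 ± 0.42 (adjusted p = 1.6e-06). ROBO2 lay at percentile 99.64 of all genes tested by its change. It was tested only because of its reads in the libraries labelled BRG1, so that rank adds no evidence. Its value was 5.06 without control 1 and 3.62 without control 2. SLIT2 stood at 92.4 and 115 CPM in the controls and 110 and 108 CPM in the others (0.07, 95% interval -0.18 to 0.31). ROBO1, the other Slit receptor tested, stood at 228 and 316 CPM against 284 and 300 CPM (0.10, interval -0.18 to 0.38). As for PLXNB2, the libraries labelled BRG1 lay between the controls. ROBO1 was past the test as lower without control 1 (-0.12) and as higher without control 2 (0.36), and SLIT2 as higher without control 2 (0.23).

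Netrins are laminin-like secreted proteins. NTN1 (ENSSSCG00000017993), the founding member, had 15980 and 18953 reads in the controls and 13947 and 13190 in the libraries labelled BRG1. It fell from 456 and 591 CPM to 356 and 352 CPM (-0.56 ± 0.12, adjusted p = 0.00168). The adjusted p was 0.051 without library 1 labelled BRG1 and 0.0563 without library 2, and the value was -0.37 without control 2 and -0.34 with library size alone. NTN4, which binds laminin in basement membranes, rose from 13.1 and 12.9 CPM to 18.8 and 19.8 CPM (0.57 ± 0.14, adjusted p = 0.00429), though not past the test without library 2 labelled BRG1 (adjusted p = 0.0632), and its value was 0.37 with the span trend removed. NTN3 went from 3 and 24 reads to 146 and 98 reads, or from 0.0857 and 0.748 CPM to 3.72 and 2.62 CPM (2.94 ± 0.61, adjusted p = 0.00112). The size of that rise rested on the control: it was 2.08 without control 1 and 5.16 without control 2. NTN3 was tested only because of its reads in the libraries labelled BRG1, which favours a rise.

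UNC5 receptors of netrin moved apart. UNC5B (ENSSSCG00000010276), known from endothelial tip cells, fell from 51.3 and 77.0 CPM to 35.7 and 30.9 CPM (-0.94 ± 0.16, adjusted p = 0.000193), or by 1.21 without control 1 and 0.62 without control 2. UNC5C rose from 3.71 and 4.67 CPM to 7.73 and 6.89 CPM (0.80 ± 0.22, adjusted p = 0.00816), and UNC5A from 3.26 and 4.14 CPM to 6.02 and 5.82 CPM (0.68 ± 0.24, adjusted p = 0.03). Without library 1 labelled BRG1 neither rise passed (adjusted p = 0.0736 and 0.139), nor with the span trend removed (0.50 and 0.57), and UNC5A was also lost without library 2 (adjusted p = 0.1), without control 1 (adjusted p = 0.105) and in DESeq2 (adjusted p = 0.0539). UNC50, taken in by its letters alone, fell from 38.3 and 29.4 CPM to 25.7 and 25.4 CPM (-0.41 ± 0.14, adjusted p = 0.0283). UNC50 did not pass without control 1 (-0.20, adjusted p = 0.17), without library 1 labelled BRG1 (adjusted p = 0.138) or without library 2 (adjusted p = 0.154), and its value was -0.18 with library size alone, -0.30 with upper quartile scaling and -0.16 with the span trend removed, none past the test. Leaving UNC50 aside, 20 members rose and 11 fell.

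Known partners can be read side by side. SEMA6A fell while its receptors PLXNA4 and PLXNA2 rose. SEMA3C fell beside its receptor PLXND1. NTN1 fell beside UNC5B, while UNC5A and UNC5C, also receptors of netrin, rose. SEMA3A fell slightly while NRP1 rose. SEMA3F and NRP2 were both higher, as were SEMA5A and PLXNB3. SLIT3 and ROBO2 were both higher, while ROBO1, the other Slit receptor tested, did not pass. EFNB2 rose while EPHB4 and EPHB3 did not pass and EPHA4 fell. These pairs were picked after their values were seen, and binding or signalling was not measured. Of 31 ligands tested 10 rose and 6 fell, and of 26 receptors 10 rose and 5 fell. The rises were 32.3% and 38.5%, against 20.8% of all genes, and the falls 19.4% and 19.2%, against 23.4%. These rises include NTN3, ROBO2 and EPHA7, tested only because of reads in the libraries labelled BRG1.

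**Figure D3:**
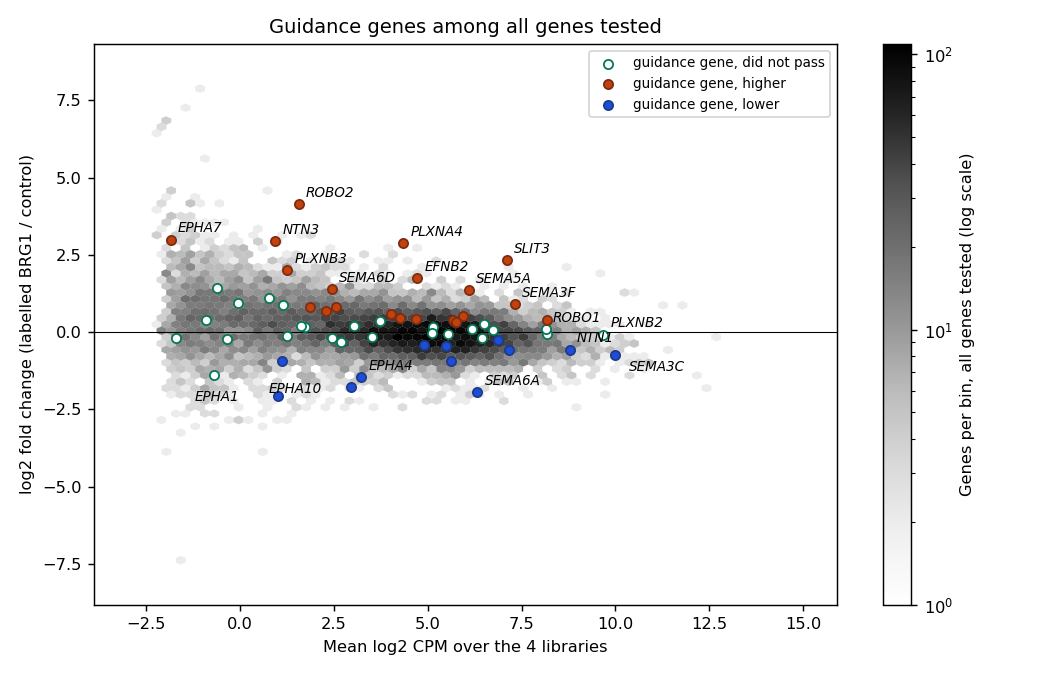
Log2 fold change (libraries labelled BRG1 over controls) against mean log2 CPM for all 14711 genes tested, drawn as grey bins whose darkness gives the number of genes on a log scale. Coloured points are the guidance genes: SLIT3 and PLXNA4 lie at the upper edge and SEMA6A near the lower edge of genes of their level, while PLXNB2 and ROBO1 lie near 0.

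Co-receptors and inner signalling genes of these pathways were read from a list of 96 genes, of which 91 were found and 83 tested. Of these, 27 rose and 15 fell, or 32.5% and 18.1%, against 20.8% and 23.4% of all genes, with a median of 0.07. At least 2-fold rises made up 4.82% of the list (8.57% of all genes) and 2-fold falls 1.20% (6.24%). With scaling by library size alone 39 rose and 7 fell, against 4818 and 2136 of all 14711 genes. Without either library labelled BRG1 fewer of the list rose and fewer fell, as among all genes. RND1, a protein that binds plexins, fell the most, from 167 and 142 CPM to 40.1 and 39.0 CPM (-1.96 ± 0.11, adjusted p = 4.66e-09). RRAS, a GTPase on which plexins act, fell by 0.92 ± 0.11 on the log2 scale, and the chimaerins CHN2 and CHN1, which switch off Rac below Eph receptors, by 0.86 ± 0.13 and 0.62 ± 0.14. PAK1, a kinase driven by Rac, fell by 0.85 ± 0.15. DPYSL2, a semaphorin-signalling protein that binds tubulin, fell by 0.78 ± 0.10, from 220 and 231 CPM to 127 and 135 CPM. Its relative DPYSL3 rose by 1.02 ± 0.11, from 201 and 225 CPM to 435 and 429 CPM. CHN1 was lost without library 1 labelled BRG1 (-0.51, adjusted p = 0.0687).

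SRGAP1, a GTPase-activating protein that binds Robo receptors, rose from 103 and 106 CPM to 239 and 255 CPM (1.24 ± 0.10, adjusted p = 1.9e-07). FARP2, an exchange factor at plexin-A receptors, rose by 1.15 ± 0.19, RGMA, a ligand of neogenin, by 1.12 ± 0.12, EVL, an actin regulator of the Ena/VASP family, by 0.95 ± 0.13, and PAK3 by 0.89 ± 0.22. The last was at 0.62 without control 1. Neogenin itself, NEO1, did not pass (0.04 ± 0.12), nor did ADAM10, a protease that cuts ephrins (adjusted p = 0.976).

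Several members lie beside each other in the genome, here in RefSeq coordinates of Sscrofa11.1. SEMA3F (chromosome 13, 32641376 to 32671231) and SEMA3B (32737100 to 32749633) are 65.9 kb apart, and both rose. ROBO1 (chromosome 13, 175348223 to 176479482) and ROBO2 (177365712 to 179040027) are 886 kb apart, and only ROBO2 passed. On chromosome 9 SEMA3D, SEMA3A and SEMA3E follow each other within gaps of 449 and 294 kb: SEMA3A fell, SEMA3D did not pass and SEMA3E had at most 1 read in a library. SEMA3C (99114649 to 99432683), which fell, lies further along that chromosome. On chromosome X PLXNB3 rose and PLXNA3, 460 kb away, did not pass. On chromosome 4 EFNA1, EFNA3 and EFNA4 follow within gaps of 36.5 and 11.4 kb, and none passed. Other members with large changes are SLIT3 (chromosome 16, 54551536 to 55221427), PLXNA4 (chromosome 18, 16475250 to 16977821), EFNB2 (chromosome 11, 74188337 to 74232768), SEMA6A (chromosome 2, 120560095 to 120687597), EPHA4 (chromosome 15, 123350867 to 123501872) and EPHA10 (chromosome 6, 93764732 to 93804069).

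Members span more of the genome than most genes, with a median of 47.2 kb against 29.2 kb for all tested genes with a span. Among all genes the change rises with span (Spearman correlation 0.29 over 11351 genes, which are not independent). Genes of 100 kb or more had a median change of 0.25 and genes under 30 kb one of -0.19. Guidance genes had medians of 0.27 in 26 members of 100 kb or more and 0.18 in 24 members under 30 kb, and a correlation of 0.06 over the 58. Of the 26 long members 12 rose and 5 fell, where of 2071 long genes in all 754 rose and 273 fell. Of the 24 short members 6 rose and 4 fell, where of 5765 short genes 738 rose and 2001 fell. With each library's trend with span removed, 18 members rose and 10 fell, and 22 of the 32 calls were kept.

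Guidance genes differed between the 2 controls. In 45 of the 58 members control 2 lay above control 1, with a median difference of 0.31 on the log2 scale, while among all genes tested 7130 of 14711 did so, with a median of -0.01. Of the 24 members with a mean log2 CPM of 5 or more, 23 were higher in control 2, and EFNB1 was the exception. Over all genes at that level the median was 0.001. Plexins had a median of 0.42, and the ratio of control 2 to control 1 was 1.34 for PLXNB2, 1.40 for PLXNA1, 1.39 for ROBO1, 1.29 for NTN1 and 1.50 for UNC5B. Libraries 1 and 2 labelled BRG1 showed no such lean: 27 of 58 members were higher in library 2, with a median of -0.02. This pattern was noticed in the values. The share of reads outside annotated genes was 6.11% in control 1 and 7.34% in control 2, against 10.3% and 10.5% in the libraries labelled BRG1. The share of reads in members was 0.411% and 0.512% in controls 1 and 2, against 0.500% in each library labelled BRG1. Both shares rose from control 1 to control 2, but only the share outside genes was higher again in the libraries labelled BRG1. What part reads outside genes have in the pattern was not tested.

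**Figure D4:**
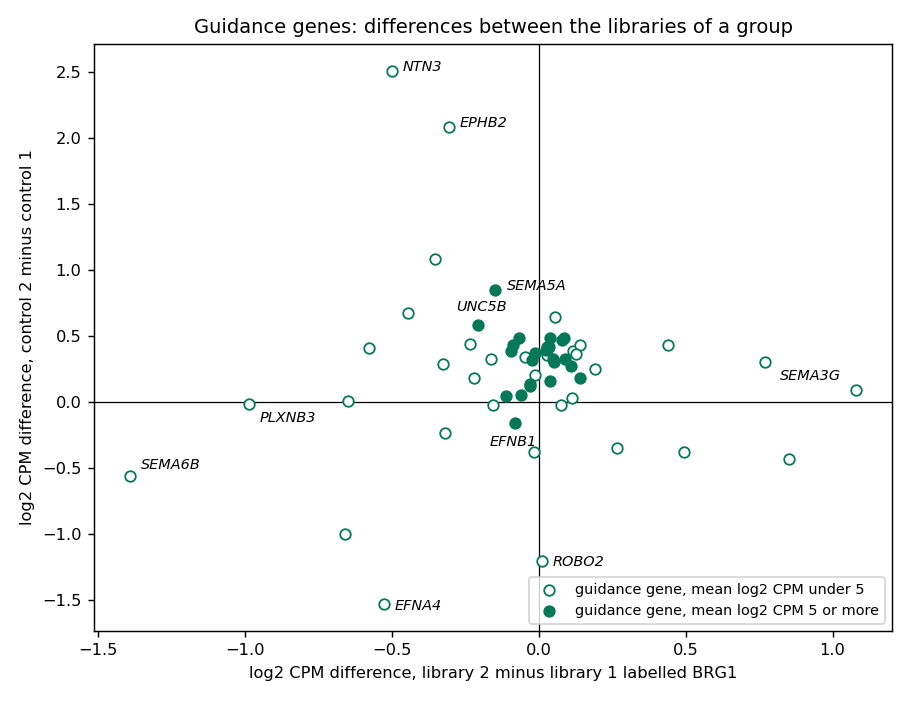
Difference in log2 CPM between the 2 libraries of a group for the 58 guidance genes tested, control 2 minus control 1 on the vertical axis and library 2 minus library 1 labelled BRG1 on the horizontal axis. Filled points have a mean log2 CPM of 5 or more: 23 of those 24 lie above 0 on the vertical axis, while on the horizontal axis 12 of the 24 do.

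Markers of other skin cell types were read beside these changes. Endothelial markers summed to between 14.3 and 19.5 CPM in the controls and to 21.1 and 21.9 CPM in the libraries labelled BRG1. Of 10 found, 5 were tested, of which 1 rose (PECAM1), against 20.8% of all genes, and 0 fell. EGFL7 (0.20), CLDN5 (0.32), TIE1 (1.51) and VWF (-1.28) did not pass. EGFL7, at 8.79 to 13.3 CPM, was the largest part of each sum, and TEK was at 0 in all libraries. CDH5 and KDR were at 0.0286 and 0.0571 CPM in control 1 and at 0 in the other libraries. ROBO4, the Robo receptor of endothelium, had 0 reads. The 7 neural and Schwann cell markers reported here summed to 19.2 and 17.0 CPM in the controls and to 7.27 and 6.81 CPM in the others. Of these 7, 4 were tested, of which 2 fell (NGFR and TUBB3), against 23.4% of all genes, and 0 rose. MAP2 (0.10) and ELAVL4 (-0.26) did not pass. STMN2 was at 0 throughout and SOX10 at most at 0.114 CPM. Pericyte and smooth muscle markers summed to 59.0 and 71.8 CPM against 241 and 258 CPM. Of these 9 markers 8 were tested, of which 4 rose (ACTA2, CNN1, NOTCH3 and CSPG4), against 20.8% of all genes, and 0 fell. ACTA2 alone went from 7.31 and 5.83 CPM to 134.5 and 149.3 CPM. MYH11 (0.14), DES (0.63), KCNJ8 (1.18) and MCAM (-0.02) did not pass, and RGS5 was at most at 0.187 CPM. Keratinocyte markers summed to at most 3.63 CPM, with KRT5 at 0, and leukocyte markers to at most 4.42 CPM, with PTPRC at 0. Of 2 tested in each list, EPCAM (-3.21) and TYROBP (-2.10) fell, while KRT10 (0.08) and CD68 (0.52) did not pass. Among all genes 23.4% fell. Melanocyte markers, nearly all MITF, summed to 8.25 and 8.16 CPM in the controls and to 17.1 and 16.6 CPM in the libraries labelled BRG1. MITF, the only 1 tested, rose (1.11), against 20.8% of all genes. Whether neural or smooth muscle cells were present, and what part they have in the changes of guidance genes, was not tested.

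**Figure D5:**
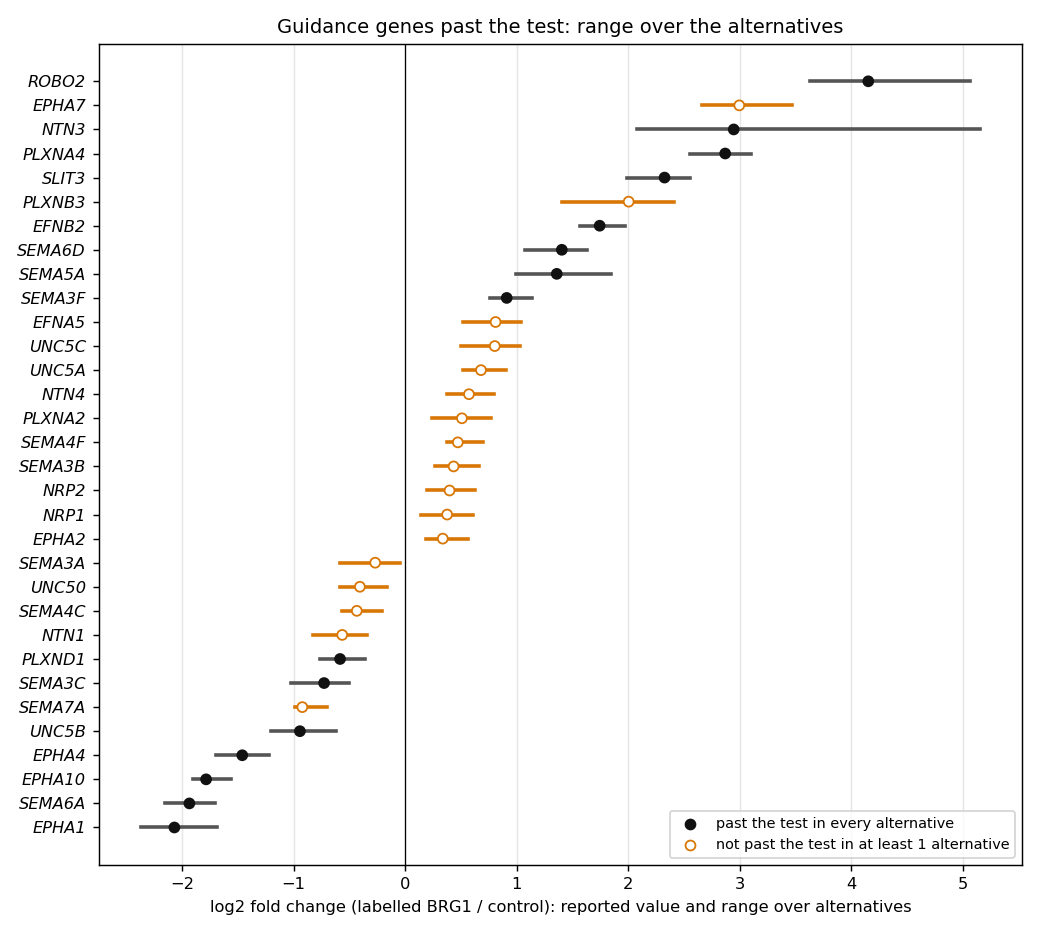
Reported log2 fold change (points) and its range over the alternatives (lines) for the 32 guidance genes past the test. Black points, 15 of the 32, passed in every alternative in which they could be tested, among them the rises of ROBO2, NTN3, PLXNA4, SLIT3 and EFNB2 and the falls of EPHA1, SEMA6A, EPHA10 and EPHA4; no line crosses 0.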

How the data were processed

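Members and lists were chosen with earlier results of these data known. RNA was total RNA from a trizol extraction, per the labels. Each library has 1 deposited file of raw read counts, in whole numbers, by Ensembl gene. The submitters' processing notes name STAR, Cufflinks, SAMtools, FastQC, edgeR and DESeq2, and the build Sscrofa11.1. Counter, strand setting and annotation release are not given in the sources used here, and overlapping or antisense genes cannot be told apart. File-end rows without a gene were left out: reads outside genes made up 6.11% to 10.5% of those listed, reads on more than 1 gene 1.90% to 2.33% and reads aligned to more than 1 place 1.42% to 1.80%.

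All 14711 genes with 10 or more reads in at least 2 libraries were fitted in R 4.3.3 with edgeR 4.0.16: TMM scaling, quasi-likelihood F test of the group, Benjamini-Hochberg adjustment over all genes, threshold 0.05, prior count 0.125. The SE is the unshrunk log2 fold change over the square root of F, and 95% intervals use it. Correlations of log2 CPM were 0.983 between controls, 0.987 between libraries labelled BRG1 and 0.948 to 0.953 between groups. Members with a value in each library are those past the threshold that changed 2-fold or have a mean log2 CPM of 5 or more; the others were added as the families required. From the signalling list up to 6 genes in each direction are named, with NEO1 and ADAM10 chosen after their values were seen. Gene spans came by symbol from a RefSeq table of Sscrofa11.1 and cover all 70 members and 77.2% of genes tested. Alternatives were other scalings and filters, DESeq2 1.42.0, limma-voom (limma 3.58.1), robust estimation, the replicate number as a block, a threshold of 0.01, removal of each library's trend with span, and each library left out. Some markers of the neural and Schwann cell list are not reported here.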

Additional observations from a re-analysis of the deposited data

How the results depend on the processing

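No member past the test changed direction in any alternative, and 15 of the 32 passed in every one where they could be tested. ROBO2 and NTN3, among these 15, could not be tested with 10 reads in all libraries. With an adjusted p of 0.01, 12 members rose, and 21 of the 32 calls were kept. Leaving out single libraries gave 9 to 27 rises and 7 to 15 falls among members, 18 to 36 and 6 to 20 in the signalling list, and 1893 to 3883 and 2237 to 4234 among all genes. Library size alone gave 4818 and 2136 among all genes and 7 falls in the signalling list. DESeq2 kept 28 calls and added 0. The correlation over genes of deviations of same-numbered libraries was -0.04. With 2 libraries a group, this cannot show whether same-numbered libraries share a culture or a day. With the replicate block 21 members rose and 11 fell, with EPHA7 and SEMA7A lost and EFNA4 and PLXNA3 gained. Genes that did not pass turned sign as follows. With library size alone EFNA1 was at 0.051, EPHA3 0.048, EPHB3 0.20, EPHB4 0.16, PLXNA1 0.17, PLXNB2 0.14, SEMA3D 0.0503, SEMA3G 0.094, SEMA5B 0.016, SEMA6C 0.057 and SMARCA4 0.18; with upper quartile scaling EPHB3 was at 0.083, EPHB4 0.037, PLXNA1 0.045, PLXNB2 0.025 and SMARCA4 0.0604. With the span trend removed EFNA1 was at 0.093, EPHB3 0.053, EPHB4 0.031, ROBO1 -0.26, SEMA3G 0.069, SEMA4D -0.045 and SLIT2 -0.24, and with 10 reads in all libraries EPHB3 was at 0.0016. Leaving out single libraries gave EFNA2 -0.25 to 0.53, EPHA3 -0.79 to 0.26, EPHB3 -0.059 to 0.0036, EPHB4 -0.15 to 0.013, PLXNA1 -0.28 to 0.20, PLXNB1 -0.082 to 0.33, PLXNB2 -0.27 to 0.15, ROBO1 -0.12 to 0.36, SEMA3G -0.79 to 0.31, SEMA4B -0.058 to 0.42, SEMA4D -0.13 to 0.52, SEMA6B -0.58 to 0.97, SEMA6C -0.35 to 0.037, SLIT2 -0.085 to 0.23 and SMARCA4 -0.15 to 0.064. For these values the cause was not tested. The planned check of levels per length was not run, since no transcript length was used here. Depth limits EPHA3, EPHA7, EPHB1, EFNA3 and SEMA6B, whose intervals are wider than 3 log2 units.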
